A study of Homo sapiens with 12 samples.

Results

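The genes described here carry decitabine (5-Aza-dC) into the cell, activate it or destroy it: the nucleoside transporters SLC29A1 and SLC29A2, the kinases DCK and CMPK1, the deaminases CDA and DCTD, the triphosphate hydrolase SAMHD1 and the nucleotidase NT5C2. They were chosen by name, and every probe set annotated with 1 of these symbols alone was taken, which gave 23 probe sets for 8 genes, of 54613 probe sets and 19775 genes on the arrays. L428 and L1236 are established cell lines of classical Hodgkin lymphoma. The 4 groups were L428 exposed to 1 µM 5-Aza-dC for 24 h and then kept 72 h in drug-free medium, untreated L428, L1236 given the same exposure and washout, and untreated L1236, with 3 arrays each. All cells were grown in RPMI1640 with serum, glutamine and antibiotics, and no genotype or clone was named in the labels. The treatment was described as done in triplicate, but nothing says that the cultures were separate. The p-values therefore reflect the spread of these 12 samples alone, which may be technical.

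Decitabine is a deoxycytidine analogue that enters cells through equilibrative nucleoside transporters and is phosphorylated first by deoxycytidine kinase and then by nucleotide kinases. Its triphosphate is built into DNA, where it traps DNA methyltransferases, and methylation of CG sites is lost as cells divide. Deamination by cytidine deaminase, deamination of the monophosphate by dCMP deaminase and hydrolysis of the triphosphate by SAMHD1 remove the active drug. SAMHD1 is also known as a restriction factor for retroviruses that interferon induces in some cell types. The RNA was taken after the washout, so the levels are those of cells that had been without the drug for 72 h.

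Promoter sequences from RefSeq (GRCh38.p14, 250 bases before to 50 after the gene start) were matched for 7 of the 8 genes, all but SLC29A2. Those of SAMHD1, the 1 gene called after treatment, and of DCK and SLC29A1, both called between the untreated lines, are shown because CG sites are where the drug acts on DNA. Capitals mark CG dinucleotides. The windows lie at chr20:36951659-36951958 on the minus strand for SAMHD1, chr4:70993399-70993698 on the plus strand for DCK and chr6:44219365-44219664 on the plus strand for SLC29A1, each written 5′ to 3′ along its gene.
SAMHD1: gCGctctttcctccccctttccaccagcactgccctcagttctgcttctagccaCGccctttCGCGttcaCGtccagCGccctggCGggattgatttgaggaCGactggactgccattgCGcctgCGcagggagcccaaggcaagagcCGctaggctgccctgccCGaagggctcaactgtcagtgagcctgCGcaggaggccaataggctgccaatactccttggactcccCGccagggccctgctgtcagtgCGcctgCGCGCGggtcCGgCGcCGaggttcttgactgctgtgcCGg
DCK: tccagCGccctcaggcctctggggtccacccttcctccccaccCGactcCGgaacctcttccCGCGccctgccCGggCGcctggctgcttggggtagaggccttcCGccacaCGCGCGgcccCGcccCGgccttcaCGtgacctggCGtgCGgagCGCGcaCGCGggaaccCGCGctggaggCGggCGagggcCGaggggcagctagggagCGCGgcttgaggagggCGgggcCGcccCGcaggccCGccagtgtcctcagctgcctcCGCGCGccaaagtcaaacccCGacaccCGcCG
SLC29A1: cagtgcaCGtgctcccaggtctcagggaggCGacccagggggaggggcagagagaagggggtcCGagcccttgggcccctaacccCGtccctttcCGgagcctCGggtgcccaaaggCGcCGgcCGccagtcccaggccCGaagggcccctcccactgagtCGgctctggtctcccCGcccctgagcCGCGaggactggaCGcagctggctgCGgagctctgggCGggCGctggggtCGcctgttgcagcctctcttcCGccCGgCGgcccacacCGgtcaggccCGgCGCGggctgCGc
The SAMHD1 window held 22 CG dinucleotides, the DCK window 37 and the SLC29A1 window 27, against a median of 14 over 27305 windows of the same length. Fewer CG were found in 62.4% of all windows than in that of SAMHD1, in 88.9% than in that of DCK and in 72.1% than in that of SLC29A1. Of the other members, DCTD had 30, CMPK1 25, CDA 8 and NT5C2 3. Only 1 window per gene was used, and other starts of these genes were not examined. The motif GGGCGG, searched on both strands as the core of an Sp1 site, was present in 44.6% of all windows. It was found 3 times in the DCK window, 3 times in the SLC29A1 window and 2 times in that of DCTD. GAAANNGAA, a core of interferon response elements, occurred in 8.29% of all windows and TTCNNNGAA, a core of STAT elements, in 7.88%, both strands searched. Neither string of letters was in any of the 7 member windows, SAMHD1 included. DNA methylation was not measured on these arrays.

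Values are log2 signals after robust multichip averaging (RMA), so a difference of 1 is a doubling. Array medians lay between 3.01 and 3.09. Over all genes the correlation was 0.981 to 0.998 for arrays within a group, 0.959 to 0.989 across treatments of a line and 0.901 to 0.925 across lines. The first treated array of each line stood apart. The SD of its deviations from its group mean was 0.449 in treated L428 and 0.384 in treated L1236, against 0.156 to 0.315 on the other 10 arrays, so results are also given without replicate 1 of all 4 groups. The labels of untreated L1236 replicate 1 conflict: its source name describes treated L428, while its description reads untreated L1236, which was followed. It correlated at 0.981 or more with the other untreated L1236 arrays and at 0.925 or less with every L428 array. Its values thus go with the description. A value without that array is still given beside the L1236 response of the brightest probe set of each member other than CDA. No such value is given for the other probe sets or for the differences between the responses. The array type also conflicts, since the series design gives a whole-transcript chip and the probe set identifiers belong to a 3′ chip, and the identifiers were followed. TNFRSF8 (CD30), the defining surface marker of Hodgkin cells, averaged 10.17 ± 0.09 in treated L428, 10.39 ± 0.38 in untreated L428, 9.59 ± 0.15 in treated L1236 and 9.57 ± 0.16 in untreated L1236 (SD, n = 3 each). Of 9 measured B-cell markers MS4A1 (CD20) averaged at most 2.55 and CD79A at most 3.78 in all groups, while POU2AF1 averaged 13.41 and PAX5 11.78 in untreated L1236, and SPIB averaged 8.86 in untreated L428. Replacement of one cell population by another and a change of RNA per cell cannot be told apart in such bulk samples.

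Of the 23 probe sets, 8 stayed below the lowest array median, 3.01, on all 12 arrays, as did 39.4% of all probe sets. These were the only probe set of CDA, 4 of 5 for SLC29A2, 1 of 6 for SAMHD1, 1 of 3 for CMPK1 and 1 of 2 for NT5C2. The other 15 carried signal above that level on at least 1 array, and the text turns on them. Each gene is represented by its probe set of highest mean signal, and the test is limma's moderated test with 4 group means, adjusted over all genes and called at an adjusted p under 0.05.

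**Figure D1:**
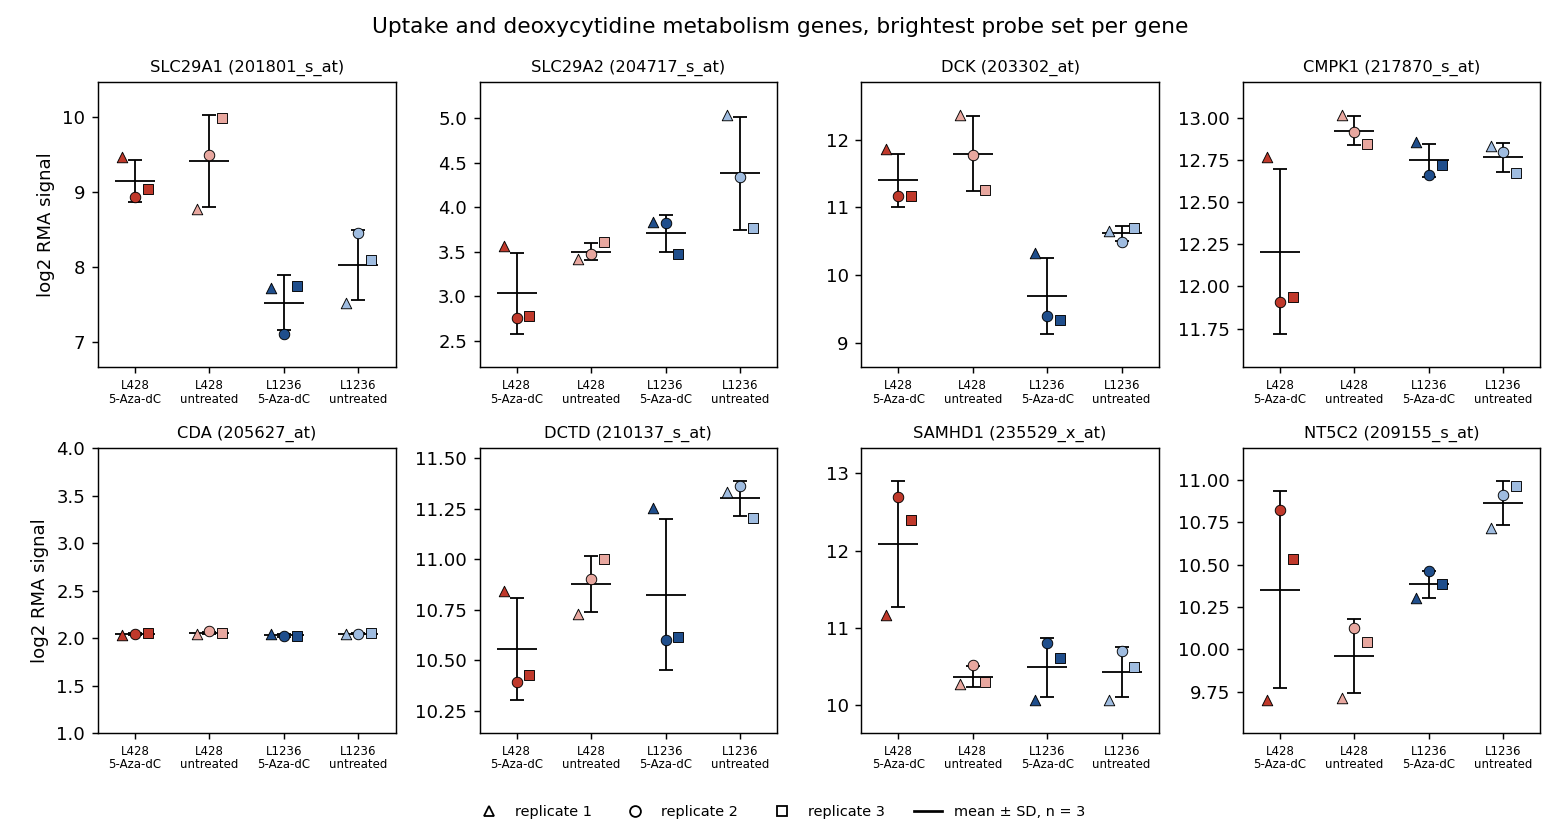
Log2 RMA signal (vertical axis, 1 scale per gene) of the brightest probe set of each of 8 genes on the 12 arrays, in treated L428, untreated L428, treated L1236 and untreated L1236. Symbols mark replicates and bars the mean ± SD (n = 3). SAMHD1 is above 11 on all 3 treated L428 arrays and below it on the other 9, while CDA sits near 2.04 on every array.

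SAMHD1 was higher in treated than in untreated L428, by 3.28-fold, and was the only one of the 8 genes whose treated and untreated groups differed at the set threshold in either line. SAMHD1 hydrolyses deoxynucleoside triphosphates, that of decitabine among them. On probe set 235529_x_at it read 11.16, 12.69 and 12.40 in treated L428, against 10.28, 10.52 and 10.31 in untreated L428. All 3 treated arrays lay above all 3 untreated ones, with replicate 1 the lowest of the treated. The log2 difference was 1.71 ± 0.37 (SE, 95% interval 0.87 to 2.56, adjusted p = 0.0370). In L1236 the same probe set read 10.07, 10.80 and 10.61 in treated cells, against 10.07, 10.71 and 10.49 in untreated cells. These groups overlapped almost fully, with a difference of 0.07 ± 0.37 (95% interval -0.78 to 0.92, adjusted p = 0.909), or -0.11 without the untreated L1236 array of conflicting labels. The L1236 response minus the L428 response was -1.64 ± 0.53 and missed the threshold (adjusted p = 0.139). With the replicate number as a block it was called (adjusted p = 0.0440, against 3.95% of all genes called in that fit). Taken over all genes, the numbers did not pair the L1236 arrays. On this probe set replicate 1 was lowest and replicate 2 highest in both L1236 groups. The difference between the lines thus depends on the fit.

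The SAMHD1 call in L428 was lost in many fits that left out 1 array, L1236 arrays among them, which do not enter the difference itself. It was lost in fits without untreated L428 replicate 1 (adjusted p = 0.0768), replicate 2 (0.0964) or replicate 3 (0.106), and without treated L428 replicate 2 (0.129) or replicate 3 (0.15). It was also lost without untreated L1236 replicate 2 (0.0583) or 3 (0.0655), without treated L1236 replicate 2 (0.0582) or 3 (0.0598), and when only the L428 arrays were fitted (0.194). Over all genes, L428 calls numbered 920 in the main fit, 368 to 1038 in these fits without 1 array and 206 with only the L428 arrays. Across 22 alternative settings the SAMHD1 log2 difference stayed between 1.41 and 2.17, and 12 of them kept the call. Without replicate 1 of all groups the difference was 2.13 ± 0.15 in L428 (adjusted p = 5.82e-04). In that fit the L1236 response minus the L428 response was -2.02 ± 0.21 (adjusted p = 0.00291).

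The 6 SAMHD1 probe sets were tested separately over all 54613 probe sets. In L428, 3 of the 23 member probe sets were called higher, all for SAMHD1, where 1.82% of all probe sets were called higher. Probe set 204502_at read 9.16, 10.41 and 10.17 in treated L428, against 7.21, 7.85 and 7.98 in untreated L428, and the treated arrays were again all higher (difference 2.23 ± 0.38, adjusted p = 0.0178). Probe set 234987_at gave 10.55, 11.79 and 11.47 in treated L428 and 9.27, 9.77 and 9.65 in untreated L428 (1.71 ± 0.34, adjusted p = 0.0347). A separation of the groups was also present on 235964_x_at, at 10.41, 12.14 and 11.64 in treated and 9.42, 9.73 and 9.67 in untreated L428, which missed the threshold (1.79 ± 0.40, adjusted p = 0.0525). The dimmer 1559883_s_at read 7.33, 8.33 and 8.18 in treated and 3.91, 6.27 and 5.54 in untreated L428, and had the widest spread of the 6 sets among untreated L428 arrays (2.71 ± 0.64, adjusted p = 0.0639). The remaining one, 1559882_at, stayed between 2.26 and 2.62 on all arrays. With the replicate number as a block, 5 SAMHD1 probe sets were called higher in L428, with adjusted p between 0.00319 and 0.0145, against 1.87% of all probe sets. In that fit the L1236 response minus the L428 response was called for 3 of them, with adjusted p between 0.0204 and 0.0444, against 2.09% of all probe sets. In L1236 the treated and untreated ranges overlapped on each of the 5 brighter sets, with differences between -0.08 and 0.26. Without replicate 1 of all groups 204502_at was called higher in L1236 (0.48 ± 0.12, adjusted p = 0.0460). The other brighter sets were not called there, at 0.08 to 0.45, in a fit where 34.5% of all genes were called. The suffix _x_at marks probe sets whose probes may match further sequences, while 204502_at and 234987_at carry no such mark.

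**Figure D2:**
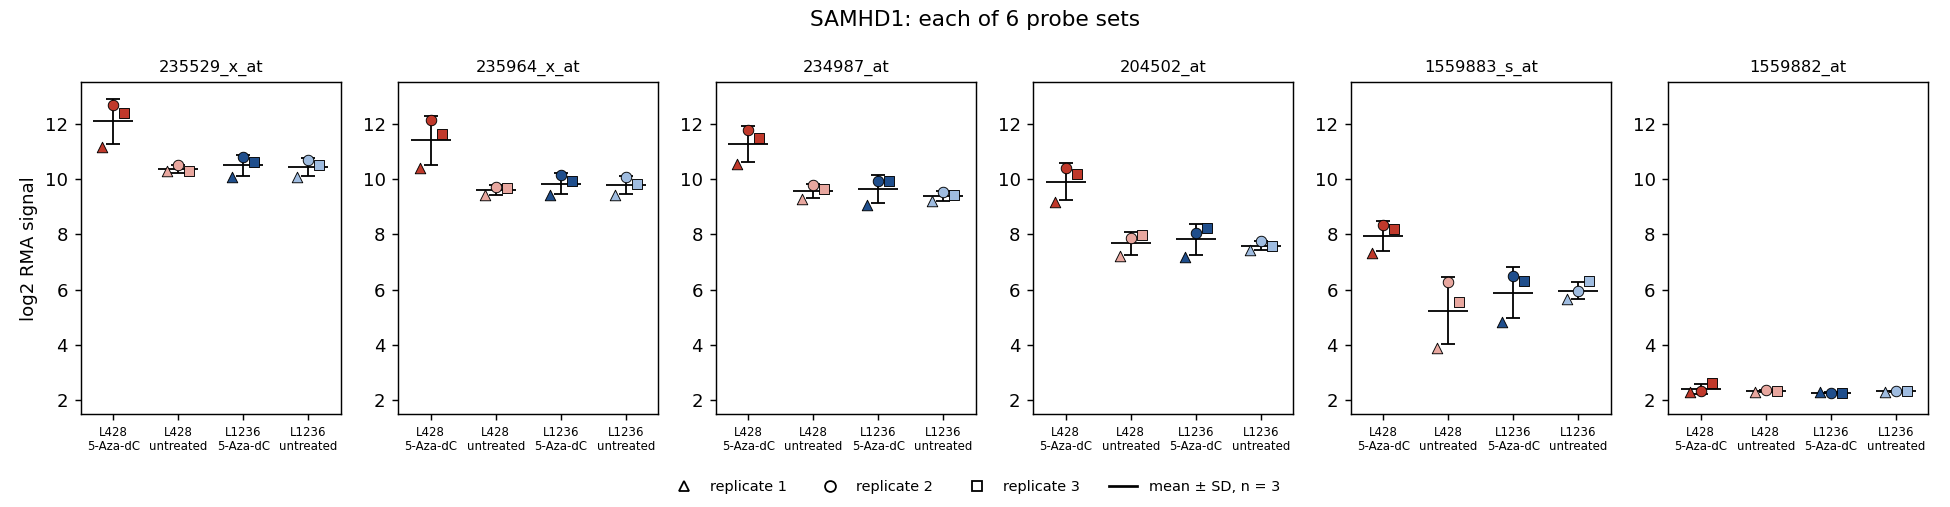
Log2 RMA signal of each of the 6 SAMHD1 probe sets (1 panel each, common vertical scale) in treated L428, untreated L428, treated L1236 and untreated L1236. Symbols mark replicates and bars the mean ± SD (n = 3). In 5 panels the 3 treated L428 arrays are the highest of their line, and the last panel, 1559882_at, stays below 2.7.

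NT5C2 removes phosphate from nucleoside monophosphates, with purine nucleotides as its main substrates. It read 9.70, 10.82 and 10.54 in treated L428, against 9.71, 10.13 and 10.04 in untreated L428. In treated L1236 it read 10.30, 10.46 and 10.39, against 10.72, 10.91 and 10.96 in untreated L1236. In L428 treated replicates 2 and 3 were above all untreated arrays and treated replicate 1 was below them, while all treated L1236 arrays were below all untreated L1236 arrays. Neither difference passed the test, at 0.39 ± 0.25 in L428 (adjusted p = 0.468) and -0.48 ± 0.25 in L1236 (adjusted p = 0.237, and -0.55 without untreated L1236 replicate 1). The difference between the responses, L1236 minus L428, was -0.87 ± 0.35 (adjusted p = 0.245). Without treated L428 replicate 1 all of these passed, at 0.72 in L428 (adjusted p = 0.00983), -0.48 in L1236 (0.0317) and -1.20 for the difference between the responses (0.00671). That fit called 3532 of all 19775 genes in L428, 3887 in L1236 and 1954 for the difference, against 920, 2955 and 914 in the main fit. With only the L1236 arrays in the fit, the L1236 difference of NT5C2 was called (adjusted p = 0.0317), as were 2348 of all genes. Probe set 241778_at read at most 2.50 on all arrays.

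SLC29A1 (ENT1) is the main equilibrative carrier of nucleosides at the cell surface, and its paralogue SLC29A2 (ENT2) carries nucleosides and nucleobases. SLC29A1 on 201801_s_at read 9.48, 8.94 and 9.04 in treated L428 and 8.77, 9.49 and 9.99 in untreated L428. In L1236 it read 7.73, 7.11 and 7.75 in treated and 7.53, 8.45 and 8.10 in untreated cells. The groups overlapped in both lines, and neither difference passed the test, at -0.27 ± 0.35 in L428 (adjusted p = 0.695) and -0.50 ± 0.35 in L1236 (adjusted p = 0.361). Without the untreated L1236 array of conflicting labels the L1236 value was -0.75 (adjusted p = 0.245). The second probe set, 201802_at, read 7.40, 6.39 and 6.61 in treated L428, against 6.91, 7.58 and 8.34 in untreated L428, which overlapped. In L1236 it read 4.34, 4.33 and 4.26 in treated cells, against 4.88, 6.61 and 5.43 in untreated cells. There all treated arrays were lower and close to each other, but the difference of -1.33 ± 0.49 was not called (adjusted p = 0.140).

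SLC29A2 was measured above the lowest array median by 204717_s_at alone. It read 3.56, 2.75 and 2.78 in treated L428 and 3.42, 3.47 and 3.61 in untreated L428. In L1236 the values were 3.83, 3.83 and 3.47 in treated and 5.03, 4.33 and 3.77 in untreated cells. Ranges overlapped in each line, and the differences of -0.47 ± 0.32 in L428 (adjusted p = 0.501) and -0.67 ± 0.32 in L1236 (adjusted p = 0.202) did not pass. The L1236 value was -0.34 without untreated L1236 replicate 1, which had the highest reading of all 12 arrays and is the array of conflicting labels. At levels this close to the floor, a true difference in transcript can be larger than the difference in signal.

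DCK, which adds the first phosphate to deoxycytidine and to decitabine, had a single probe set, 203302_at. It read 11.86, 11.17 and 11.17 in treated L428 and 12.37, 11.77 and 11.26 in untreated L428. In L1236 it read 10.33, 9.39 and 9.33 in treated cells, against 10.66, 10.49 and 10.70 in untreated cells. The L428 ranges overlapped, whereas all treated L1236 arrays were below all untreated ones and replicate 1 lay nearest to them. The difference was -0.40 ± 0.35 in L428 (adjusted p = 0.585) and -0.93 ± 0.35 in L1236 (95% interval -1.72 to -0.15, adjusted p = 0.109). Without treated L1236 replicate 1, DCK was called lower in L1236, at -1.26 ± 0.32 (adjusted p = 0.0249). That fit called 2153 of all 19775 genes lower in L1236, against 1256 in the main fit. Without untreated L1236 replicate 1 the DCK value was -0.91 (adjusted p = 0.208). The 2 responses differed by -0.53 ± 0.49, L1236 minus L428 (adjusted p = 0.724).

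CMPK1, the kinase that turns CMP, UMP and dCMP into diphosphates, had 2 bright probe sets. On 217870_s_at it read 12.77, 11.91 and 11.94 in treated L428, against 13.01, 12.91 and 12.84 in untreated L428. On 222448_s_at the values were 12.41, 11.95 and 11.84 in treated L428 and 12.54, 12.65 and 12.51 in untreated L428. Both probe sets had every treated L428 array below every untreated one, with treated replicate 1 close to the untreated range. The difference on 217870_s_at was -0.72 ± 0.20 (95% interval -1.17 to -0.27) and missed the threshold (adjusted p = 0.0821). It was called without treated L428 replicate 1, at -1.00 ± 0.08 (adjusted p = 7.53e-05), and when dim features were left out of the adjustment (adjusted p = 0.0499). The first of these fits called 1624 of all 19775 genes lower in L428 and the second 357 genes, against 264 in the main fit. In L1236 the same probe set read 12.86, 12.66 and 12.72 in treated and 12.83, 12.80 and 12.67 in untreated cells, with overlap and a difference of -0.02 ± 0.20 (95% interval -0.47 to 0.43, adjusted p = 0.955), or 0.01 without the untreated L1236 array of conflicting labels. The L1236 response minus the L428 response was 0.70 ± 0.28 (adjusted p = 0.246), and 0.98 without treated L428 replicate 1 (adjusted p = 8.34e-04). In the latter fit 1954 of all genes were called for this difference, against 914 in the main fit.

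CDA, cytidine deaminase, inactivates decitabine by deamination. Its 1 probe set, 205627_at, read between 2.02 and 2.07 on all 12 arrays, and 6.47% of all probe sets had a lower mean. No group could be told from another there, with log2 differences of -0.01 ± 0.02 in L428 and -0.02 ± 0.02 in L1236. A level at this floor gives only an upper bound on the transcript.

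DCTD, dCMP deaminase, acts on the monophosphate of deoxycytidine and of decitabine and had 3 probe sets, none of them dim. On 210137_s_at it read 10.84, 10.39 and 10.43 in treated L428 and 10.73, 10.90 and 11.00 in untreated L428. In L1236 it read 11.25, 10.60 and 10.62 in treated and 11.33, 11.36 and 11.20 in untreated cells. Treated replicates 2 and 3 were below all untreated arrays in each line, while treated replicate 1 lay within the untreated range. The differences were -0.32 ± 0.19 in L428 (adjusted p = 0.410) and -0.48 ± 0.19 in L1236 (adjusted p = 0.127, and -0.46 without untreated L1236 replicate 1). The L1236 value was called without treated L1236 replicate 1, at -0.69 ± 0.14 (adjusted p = 0.00935). That fit called 2153 of all 19775 genes lower in L1236, against 1256 in the main fit. On 201572_x_at all treated L1236 arrays were below the untreated ones, at 10.76, 10.44 and 10.46 in treated and 11.14, 11.16 and 10.97 in untreated cells (-0.54 ± 0.15, adjusted p = 0.0569 over probe sets). Probe set 201571_s_at read 11.32, 10.88 and 10.86 in treated and 11.48, 11.22 and 11.32 in untreated L1236 (-0.32 ± 0.14, adjusted p = 0.213).

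**Figure D3:**
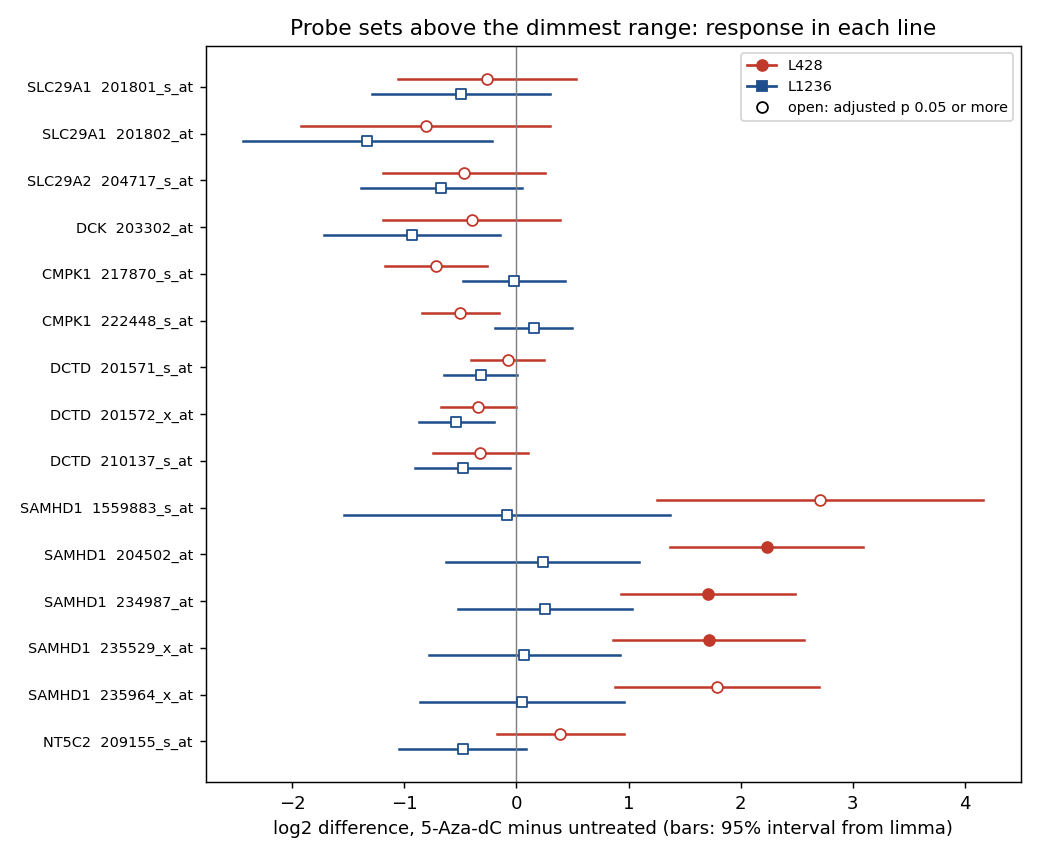
Log2 difference, 5-Aza-dC minus untreated (horizontal axis), of the 15 member probe sets that were above the lowest array median on at least 1 array, in L428 (circles) and L1236 (squares), with 95% intervals from limma. Filled symbols mark an adjusted p under 0.05, which 3 SAMHD1 probe sets reached in L428 and none reached in L1236.

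The arrays of treated and untreated cells did not overlap for 2 of 8 genes in L428, SAMHD1 and CMPK1, against 17.9% of all genes, and for 2 of 8 in L1236, DCK and NT5C2, against 57.3% of all genes. Counted together, 1 of 8 genes rose and 0 fell in treated L428, while 3.32% of all 19775 genes were called higher and 1.34% lower. In L428, 2 of 8 had an unadjusted p under 0.05. In L1236, 0 of 8 were called by limma, while 8.59% of all genes were called higher and 6.35% lower, and 2 of 8, DCK and DCTD, had an unadjusted p under 0.05. Of the 23 probe sets, 0 were called in L1236 by limma, against 9.02% of all probe sets called. An unadjusted p under 0.05 was found for 4 of the 23. For the L1236 response minus the L428 response, 0 of 8 genes were called against 4.62% of all genes, and 3 of 8 had an unadjusted p under 0.05: SAMHD1, CMPK1 and NT5C2. At the level of probe sets the difference between the responses was called by limma for 0 of 23, against 2.57% of all probe sets called. Its unadjusted p was under 0.05 for 8 of 23, all of them sets of SAMHD1, CMPK1 or NT5C2. Shares of all genes or probe sets at an unadjusted p under 0.05 are not given here. The unadjusted counts therefore have no background to be read against.

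Without replicate 1 of all groups, a fit chosen because treated replicate 1 stood apart, many more genes passed over the whole table, and the members' counts must be read against that. In L428 4 of 8 members were called, against 28.9% of all genes: SAMHD1 and NT5C2 (0.60 ± 0.10, adjusted p = 0.0103) were higher, and CMPK1 (-0.95 ± 0.06, adjusted p = 3.69e-04) and DCTD (-0.54 ± 0.07, adjusted p = 0.00334) were lower. In L1236 3 of 8 were called, all lower, against 34.5% of all genes: DCK (-1.24 ± 0.17, adjusted p = 0.00427), DCTD (-0.68 ± 0.07, adjusted p = 0.00116) and NT5C2 (-0.51 ± 0.10, adjusted p = 0.0138). The difference between the responses was called for CMPK1 (0.91 ± 0.08, adjusted p = 0.00175), NT5C2 (-1.11 ± 0.14, adjusted p = 0.00580) and SAMHD1, 3 of 8 against 23.8% of all genes. In that fit NT5C2 had opposite signs in the 2 lines, and DCTD was lower after treatment in both. With 2 arrays per group these values rest on a narrow base.

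The untreated lines differed in the transporter SLC29A1 and the kinase DCK, both lower in L1236, and in NT5C2, which was higher there. These 3 of 8 genes were called, 1 higher and 2 lower, against 15.2% of all genes called higher and 13.6% lower. SLC29A1 averaged 8.03 ± 0.47 in untreated L1236 and 9.42 ± 0.61 in untreated L428 (SD, n = 3 each), a difference of -1.39 ± 0.35 (SE, adjusted p = 0.0144). DCK averaged 10.62 ± 0.11 in untreated L1236 and 11.80 ± 0.55 in untreated L428 (-1.18 ± 0.35, adjusted p = 0.0299). NT5C2 averaged 10.86 ± 0.13 in untreated L1236 and 9.96 ± 0.22 in untreated L428 (0.90 ± 0.25, adjusted p = 0.0228). The arrays of the lines did not overlap in these 3 genes and in 3 others, 6 of 8 against 41.3% of all genes. The others were CMPK1, with all untreated L1236 arrays lower (-0.16 ± 0.20), and DCTD (0.42 ± 0.19, adjusted p = 0.140) and SLC29A2 (0.88 ± 0.32, adjusted p = 0.0706), with all higher, none of them called. SLC29A2 was called with the replicate number as a block (adjusted p = 0.0393), but its difference was 0.55 without untreated L1236 replicate 1 (adjusted p = 0.215). SAMHD1 differed by 0.05 ± 0.37 between the untreated lines (95% interval -0.79 to 0.90), and by 0.23 without that array.

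The calls between the lines were sensitive to single arrays. Without untreated L1236 replicate 1, the array of conflicting labels, SLC29A1 was -1.14 (adjusted p = 0.0545), DCK -1.20 (0.0707) and NT5C2 0.98 (0.0414). SLC29A1 was also not called without untreated L428 replicate 3 (0.0517) or with only the untreated arrays fitted (0.0616). DCK lost its call without untreated L1236 replicate 2 (0.0887) or 3 (0.0666) and without untreated L428 replicate 1 (0.0934) or 2 (0.0753). NT5C2 lost its call without untreated L1236 replicate 2 (0.0668) or 3 (0.0732) and without untreated L428 replicate 1 (0.0748) or 3 (0.0506). At the level of probe sets 5 of 23 were called, against 21.1% of all probe sets. They were both SLC29A1 sets (201802_at, -1.97 ± 0.49, adjusted p = 0.0188), those of DCK and NT5C2, and 201571_s_at of DCTD (0.97 ± 0.14, adjusted p = 0.00113), while the other DCTD sets read 0.32 ± 0.15 and 0.42 ± 0.19.

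Ordered over the 4 groups, SLC29A1 and DCK kept the same order of means, treated L1236, untreated L1236, treated L428 and untreated L428 from low to high. DCK averaged 9.68 ± 0.56, 10.62 ± 0.11, 11.40 ± 0.40 and 11.80 ± 0.55 in that order (SD, n = 3 each). Only its 2 L428 groups overlapped. SLC29A1 averaged 7.53 ± 0.37, 8.03 ± 0.47, 9.15 ± 0.29 and 9.42 ± 0.61 in the same order, and overlapped between the treatments of each line but not between the lines. SAMHD1 was highest in treated L428 at 12.08 ± 0.81, apart from treated L1236 at 10.49 ± 0.38, untreated L1236 at 10.42 ± 0.32 and untreated L428 at 10.37 ± 0.13, which all overlapped. NT5C2 averaged 10.35 ± 0.58 in treated and 9.96 ± 0.22 in untreated L428, and 10.38 ± 0.08 in treated and 10.86 ± 0.13 in untreated L1236. Its untreated lines thus lay at the ends with the treated groups between them, and neighbours in this order overlapped except treated and untreated L1236.

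A wider list of 55 genes of nucleoside transport, salvage, pool control, breakdown and efflux, of which 50 were measured, gives the surroundings of the members. In L428, 3 of 50 rose and 0 fell (6%), against 3.32% and 1.34% of all genes called higher and lower, with a median log2 difference of -0.03 against -0.02 over all genes. CMPK2, a mitochondrial UMP-CMP kinase known as interferon-inducible, read 11.26, 12.46 and 12.21 in treated L428, against 3.5, 3.79 and 3.92 in untreated L428 (8.24 ± 0.66, adjusted p = 3.05e-04). UPP1, uridine phosphorylase, read 5.91, 9.40 and 9.27 in treated L428, against 3.07, 3.10 and 3.09 in untreated L428 (5.10 ± 0.98, adjusted p = 0.0223). The untreated values of both are low on the scale, so the size of these rises depends on where the floor was set. DPYS, dihydropyrimidinase, averaged 3.41 ± 0.11 in treated and 2.41 ± 0.03 in untreated L428, close to the array medians in each (1.00 ± 0.05, adjusted p = 1.83e-05). The UPP1 call was lost without untreated L428 replicate 2 (adjusted p = 0.0774) or 3 (0.0708), without treated replicate 2 (0.0900) or 3 (0.0975), and with only L428 arrays (0.139).

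In L1236, 11 of the 50 were called (22%), 3 higher and 8 lower, against 8.59% of all genes called higher and 6.35% lower, with a median of -0.15 against -0.03 over all genes. CMPK2 read 6.14, 8.85 and 8.84 in treated L1236, against 2.85, 2.84 and 2.85 in untreated L1236 (5.10 ± 0.68, adjusted p = 0.00144). UPP1 read 5.44, 8.13 and 8.18 in treated and 3.07, 3.09 and 3.05 in untreated L1236 (4.18 ± 0.98, adjusted p = 0.0226). TYMP, thymidine phosphorylase, read 6.27, 8.01 and 8.99 in treated L1236, against 4.86, 4.62 and 4.79 in untreated L1236 (3.0 ± 0.67, adjusted p = 0.0183). TYMP was 3.05 without untreated L1236 replicate 1 (adjusted p = 0.0448). In all 3 genes every treated array was above every untreated array, and replicate 1 was the lowest of the treated.

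The 8 genes that fell in L1236 were DPYD, DHODH, RRM1, TK2, ABCC1, NME4, ABCC5 and DUT. DPYD, dihydropyrimidine dehydrogenase, read 4.67, 3.93 and 4.20 in treated and 5.99, 6.02 and 5.79 in untreated L1236 (-1.66 ± 0.23, adjusted p = 0.00202), but -0.05 by the median of its probe sets (adjusted p = 0.862). DHODH, which makes orotate for pyrimidine synthesis, read 5.14, 5.00 and 4.88 in treated and 6.64, 7.34 and 7.0 in untreated L1236 (-1.99 ± 0.41, adjusted p = 0.0137). RRM1, the large subunit of ribonucleotide reductase, read 12.13, 11.21 and 11.09 in treated and 12.46, 12.51 and 12.52 in untreated L1236 (-1.02 ± 0.24, adjusted p = 0.0242). TK2, the mitochondrial thymidine kinase that also accepts deoxycytidine, fell by 0.98 on the log2 scale (adjusted p = 0.0249). ABCC1, an efflux pump, fell by 0.91 (adjusted p = 0.00432), and ABCC1 and CMPK2 kept their L1236 calls under all 22 alternative settings. The remaining 3, named only to complete the count, were NME4 (-1.24), ABCC5 (-1.24) and DUT (-0.43).

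Several of these calls were lost when single arrays were left out. Without untreated L1236 replicate 1, the array of conflicting labels, adjusted p was 0.0567 for UPP1, 0.0569 for RRM1 and 0.0729 for TK2. Without untreated L1236 replicate 2 it was 0.0683 for UPP1, 0.0620 for TYMP, 0.0740 for RRM1, 0.0543 for DHODH and 0.0616 for TK2. Leaving out untreated L1236 replicate 3 gave 0.0722 for UPP1, 0.0612 for TYMP and 0.0789 for RRM1. Leaving out treated L1236 replicate 2 gave 0.0899 for UPP1, 0.0713 for TYMP, 0.0962 for RRM1, 0.0502 for DHODH and 0.0974 for TK2. Leaving out treated L1236 replicate 3 gave 0.0901 for UPP1, 0.0587 for TYMP, 0.0894 for RRM1, 0.0533 for DHODH and 0.0865 for TK2. Without replicate 1 of all groups, a setting added after seeing the data for this list, 10 rose and 12 fell in L428, where 28.9% of all genes were called, and 5 rose and 21 fell in L1236, where 34.5% were.

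**Figure D4:**
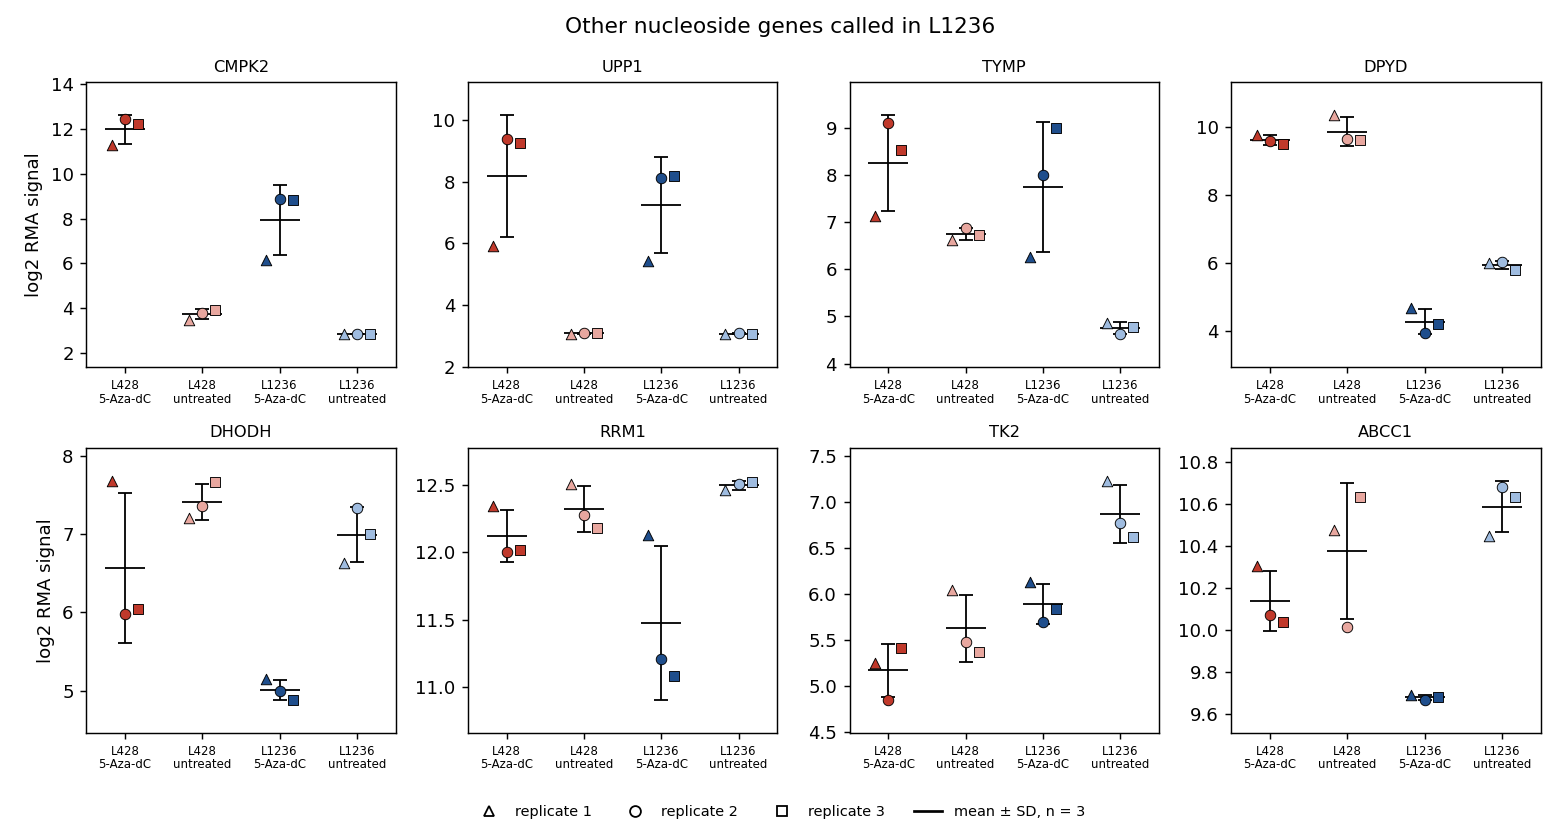
Log2 RMA signal (1 vertical scale per gene) of the 8 genes of the wider nucleoside list with the smallest p in L1236, in treated L428, untreated L428, treated L1236 and untreated L1236. Symbols mark replicates and bars the mean ± SD (n = 3). CMPK2 and UPP1 lie above 5 on all treated arrays of both lines and below 4 on all untreated ones.

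For the L1236 response minus the L428 response, 2 of 50 listed genes were called (4%), both lower, against 4.62% of all genes, with a median of -0.20 against -0.01 over all genes. DPYS gave -1.04 ± 0.07 (adjusted p = 6.56e-05), and DPYD gave -1.42 ± 0.33 (adjusted p = 0.0449), which turned to 0.35 with the median of its probe sets (adjusted p = 0.682). Between the untreated lines 4 of 50 were called higher and 11 lower in L1236 (30% in all), against 15.2% and 13.6% of all genes called higher and lower. The widest contrasts, chosen after their values were seen, were in ADA, adenosine deaminase, and the efflux pumps ABCG2 and ABCB1. ADA averaged 14.04 ± 0.09 in untreated L1236 and 5.26 ± 0.77 in untreated L428. ABCG2 averaged 2.37 ± 0.14 in untreated L1236 and 11.45 ± 0.46 in untreated L428, and ABCB1 3.76 ± 0.28 and 8.59 ± 0.33 in the same order (SD, n = 3 each). The salvage kinase TK1 averaged 8.82 ± 0.10 in untreated L1236 and 11.05 ± 0.05 in untreated L428.

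Interferon-stimulated genes rose with SAMHD1 in L428, and some also rose in L1236, where SAMHD1 differed by 0.07 ± 0.37 and was not called. Of 26 listed, 24 were measured, and all 24 rose in L428 with a median log2 difference of 4.27, against -0.02 over all genes. Over all genes 3.32% were called higher there. In L1236 9 of 24 rose, 0 fell, and the median was 1.46, where 8.59% of all genes were called higher. The mean level of the 24 was 11.68, 13.00 and 12.88 in treated L428, against 8.41, 7.93 and 7.95 in untreated L428. In L1236 it was 8.76, 10.06 and 10.00 in treated cells, against 8.22, 7.95 and 7.94 in untreated cells. The treated arrays were all above the untreated ones in each line, and replicate 1 was the lowest treated array in both, as it was for SAMHD1. Treated replicate 1 also stood apart over the whole table. Examples were PARP9 (3.97), OAS2 (5.93) and IFIT1 (6.48) in L428, and OAS3 (3.01), HERC5 (2.09) and IRF7 (2.75) in L1236. The response in L1236 minus that in L428 was called lower for 12 of 24 genes and higher for 0, against 4.62% of all genes called. Without replicate 1 of all groups 22 rose in L1236, where 3312 of all 19775 genes were called higher. The part of interferon signalling in the SAMHD1 values was not tested.

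**Figure D5:**
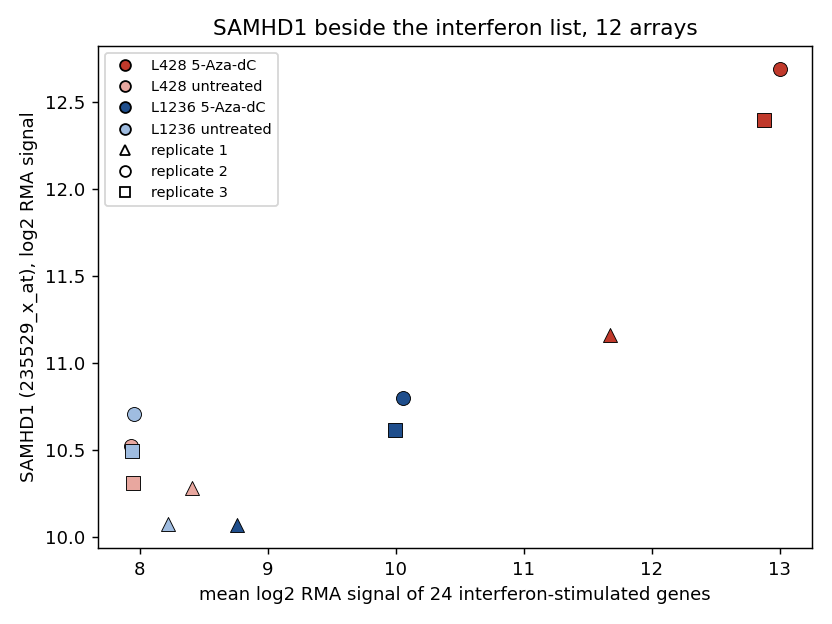
SAMHD1 log2 RMA signal (vertical axis, 235529_x_at) against the mean log2 RMA signal of 24 interferon-stimulated genes (horizontal axis) on the 12 arrays, coloured by group, with symbols for replicates. The 3 treated L428 arrays lie highest on both axes, and treated L1236 replicates 2 and 3 lie near 10 on the horizontal axis with SAMHD1 between 10.6 and 10.8.

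Genes of replication and mitosis are given beside DCK, DCTD and RRM1 because the same treated L1236 arrays were low. The 24 listed averaged 11.28, 10.66 and 10.61 in treated L1236, against 11.04, 11.33 and 11.18 in untreated L1236, so that treated replicate 1 was within the untreated range and the other two below it. In L1236 2 of 24 rose and 4 fell, against 8.59% and 6.35% of all genes, with a median of -0.39. Those that fell were POLA1, GINS2, MCM6 and PCNA, and those that rose were CDC45 and CDC6, all of the replication machinery and chosen here to complete the counts. In L428 0 of 24 were called by limma, and the means were 11.78, 11.40 and 11.50 in treated and 11.64, 11.60 and 11.61 in untreated cells. Without replicate 1 of all groups 2 rose and 19 fell in L1236, where 34.5% of all genes were called, and 1 rose and 5 fell in L428, where 28.9% were. The part of cell division in the DCK, DCTD and RRM1 values was not tested.

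Some markers of other blood cells rose, while the rest stayed low. The 14 measured myeloid markers averaged 3.33 to 3.48 in treated and 2.91 to 3.0 in untreated L428, and 3.74 to 4.18 in treated and 3.05 to 3.10 in untreated L1236. In L428 2 of them rose, TYROBP and AIF1, and in L1236 4 rose, TYROBP, AIF1, ITGAM and CEBPA, against 3.32% of all genes called higher in L428 and 8.59% in L1236. TYROBP, a signalling adaptor, averaged 6.87 ± 0.30 in treated and 2.79 ± 0.37 in untreated L428, and 9.40 ± 0.26 in treated and 3.35 ± 0.14 in untreated L1236 (SD, n = 3 each). AIF1 averaged 7.26 in treated and 5.87 in untreated L428, and 7.99 in treated and 5.82 in untreated L1236. In L1236 ITGAM averaged 5.60 in treated and 3.97 in untreated cells, and CEBPA 5.42 in treated and 3.56 in untreated cells. The monocyte markers CD14 and LYZ were among 8 of the 14 that stayed below the lowest array median on all 12 arrays. The 13 T and NK cell markers averaged 2.86 to 3.06 in treated and 2.66 to 2.84 in untreated L428, and 3.18 to 3.25 in treated and 2.56 to 2.66 in untreated L1236. CD2 rose in L428 (1.71), and CD8A and CD3D rose in L1236. CD8A averaged 5.33 in treated and 1.97 in untreated L1236, and CD3D 6.56 in treated and 4.13 in untreated L1236. CD3E and CD3G, which form the T-cell receptor complex with CD3D, were among 7 of the 13 that stayed below the lowest array median on all arrays. Of 9 measured B-cell markers PAX5 rose in L428 (1.22), and SPIB (6.54) and CD79B (0.81) rose in L1236. Of 10 Hodgkin cell markers 2 rose in L428, CCL22 (3.76) and CD274 (2.64), and 5 in L1236, CCL22 (6.45), CCL17 (3.01), CD274 (2.14), EBI3 (2.13) and CD70 (1.52). The markers are named here to complete the counts, and their part in the members' values was not tested.

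The 3 genes whose profiles over the 12 arrays lay nearest to that of SAMHD1 were LOC100506790, MB21D2 and FTCD, by the root mean square difference of profiles centred on their own means (0.235, 0.237 and 0.249 log2 units). LOC100506790 read 3.47, 4.92 and 4.61 in treated L428, against 2.79, 2.94 and 2.81 in untreated L428. MB21D2 read 4.29, 5.36 and 5.45 in treated L428, against 3.02, 3.70 and 3.28 in untreated L428. FTCD, an enzyme of histidine and folate metabolism, read 4.85, 5.97 and 6.10 in treated L428, against 3.67, 3.82 and 3.63 in untreated L428. In each of them replicate 1 was the lowest treated L428 array. This likeness to SAMHD1 follows from the way the genes were chosen and is no support for a link. The treated L1236 means of the 3 genes were 2.75, 3.53 and 4.15, against 2.84, 3.47 and 3.71 in untreated L1236.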

How the data were processed

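Total RNA of 12 samples was measured on Affymetrix arrays, 3 per group. The authors deposited log2 values for each probe set on every array. Per the submitters' processing notes these came from RMA, robust multichip averaging, whose version is not given in the sources used here. Whether all arrays were normalized together, and where the floor was set, is not stated. Gene names came from the platform annotation: 41097 of 54675 probe sets had 1 symbol, 1801 several and 11777 none; 62 control sets were left out, and 41043 sets matched RefSeq (GRCh38.p14) by Entrez identifier. No dim feature was removed. An array has no read depth, so the 3 arrays per group limit precision.

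Groups were taken from the sample descriptions. limma 3.58.1 in R 4.3.3 fitted 4 group means to all 12 arrays with empirical Bayes moderation; tests were two-sided, with Benjamini-Hochberg adjustment over 19775 genes (represented by the probe set of highest mean signal) or over 54613 probe sets. Alternatives were a replicate block, array weights, a variance trend, median centring, quantile normalization, cyclic loess, the median of the probe sets, leaving out dim features, fitting only the groups compared, and leaving out arrays. Array weights used limma's gene-by-gene method. The fits were tested on simulated data.

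The members, lists and alternatives were chosen with earlier results of these data known. Genes named were all members, up to 8 called genes of the wider list per line by smallest p, up to 4 for the difference between lines, up to 3 examples of other lists and the 3 profiles nearest to a called member; others are marked as named after their values were seen. Genes of the interferon and wider lists beyond the 24 and 50 measured were not analysed here. Same-numbered arrays deviated together in treated and untreated L428 (correlations 0.25, 0.17 and 0.16 over genes) and in the untreated lines (0.36, 0.20 and 0.11). Replicates 2 and 3 correlated about as much across numbers, at 0.16 and 0.17 in L428 and 0.28 and 0.19 between the untreated lines. Only replicate 1 was thus set apart by its number. In L1236 same-numbered arrays did not deviate together (0.05, -0.02 and 0.06). The main fit used no pairing, and the replicate block was an alternative.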

Additional observations from a re-analysis of the deposited data

Results flagged for a closer look

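In 2 genes of the wider nucleoside list the response of L1236 differed from that of L428 by the test of the difference itself. DPYS gave -1.04 (adjusted p = 6.56e-05): it averaged 3.41 ± 0.11 in treated and 2.41 ± 0.03 in untreated L428, and 2.46 ± 0.03 in treated and 2.50 ± 0.0042 in untreated L1236 (SD, n = 3 each), all near the lower end of the scale. DPYD gave -1.42 (adjusted p = 0.0449): it averaged 9.62 ± 0.14 in treated and 9.87 ± 0.42 in untreated L428, and 4.27 ± 0.38 in treated and 5.93 ± 0.13 in untreated L1236. The DPYD call was lost in 13 of its 21 alternative settings, in 1 of which its sign turned.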

How the results depend on the processing

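The counts of members called moved with single arrays and with the weight given to them. In L428 1 of 8 genes was called, and 0 with only the L428 arrays, 4 with array weights and 2 without dim features; leaving out arrays gave 0 to 4. In L1236 0 were called, and 1 with only the L1236 arrays (NT5C2), 1 with the replicate block (DCK, adjusted p = 0.0263) and 3 with array weights; leaving out arrays gave 0 to 3. For the L1236 response minus the L428 response 0 were called, and 1 with the block (SAMHD1, adjusted p = 0.0440) and 3 with array weights; leaving out arrays gave 0 to 3. Between untreated lines 3 were called, and 1 to 4 with arrays left out. Over all genes that contrast had 5699 calls, and 4858 to 7496 with arrays left out. Of the 23 probe sets 3 were called in L428, and 0 with only its arrays, 5 each with the block, the variance trend and without dim features, and 10 with array weights; leaving out arrays gave 0 to 11. In L1236 0 were called, and 1 with only its arrays, the block or without dim features, 2 with median centring or quantile normalization and 8 with array weights; leaving out arrays gave 0 to 7. For the difference between responses 0 were called, and 3 with the block, 8 with array weights and 1 without dim features; leaving out arrays gave 0 to 8. Between untreated lines 5 were called, and 1 to 7 with arrays left out. Over all genes 920 were called in L428, and 206 with only its arrays, 5103 with array weights and 368 to 5717 with arrays left out; 2955 in L1236, and 9469 with array weights and 1506 to 6817 with arrays left out; and 914 for the difference between responses, 4389 with array weights and 442 to 4697 with arrays left out. In L428 the block called 1129 genes, the variance trend 903 and the fit without dim features 1108. In L1236 the block called 3457, median centring 3923 and quantile normalization 3214. The member counts must be read against these totals. Shares over all probe sets are not given here for most of these fits. For the wider list, 22 in L428 and 26 in L1236 were called without replicate 1, against 28.9% and 34.5% of all genes. The cause of these shifts was not tested. The replicate block changed no other call of a member gene than those given. Directions turned only for values that were not called, except DPYD. CDA in L428 was 0.00014 with quantile normalization and 0.0045 with cyclic loess, and in L1236 0.0015 with cyclic loess. Between untreated lines CDA was 0.016 with median centring, 0.0023 with quantile normalization, 0.0042 with cyclic loess and -0.014 to 0.00023 with arrays left out. SAMHD1 with arrays left out was -0.11 to 0.28 in L1236 and -0.088 to 0.23 between untreated lines, where the median of its probe sets gave -0.12. SLC29A1 with arrays left out was -0.75 to 0.019 in L428 and -0.52 to 0.090 for the difference between responses, where array weights gave 0.084. SLC29A2 for that difference was -0.51 to 0.37 with arrays left out and 0.24 with array weights. CMPK1 in L1236 was -0.074 to 0.023 with arrays left out, 0.059 with cyclic loess and 0.15 by the median of its probe sets. DPYD for the difference between responses was 0.35 by the median of its probe sets. Signals near the floor limit SLC29A2, CDA and DPYS.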
